A study of Mus musculus with 4 samples.

Results

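*Pecam1*, *Cdh5*, *Kdr*, *Flt1*, *Tek*, *Tie1*, *Vwf*, *Emcn*, *Lyve1* and *Prox1* are 10 genes that mark the endothelial cells lining blood and lymphatic vessels. They were chosen by name, as the probes that the array files list under these symbols, and make up 22 of 41174 gene probes and 10 of 15383 genes measured on the *Rspo3* KO arrays. The RNA was read on 4 dual-color mouse arrays (Agilent), which hold 2 experiments. In the first, a distal colon of a *Myh11CreErt2/Rspo3 fl/fl* mouse (*Rspo3* KO) was set against that of a *Myh11CreErt2/Rspo3+/+* mouse (control) on each of 2 arrays. The tissue was taken 2 weeks after tamoxifen, with 1 mouse per channel, so that n = 2 pairs. The paper used littermates as controls, but whether the mice sharing an array were littermates was not determined. Both groups carried the Cre and received tamoxifen. The paper describes the Cre as acting in myofibroblasts that express *Myh11*. Whether it also acts in cells of vessel walls was not determined. In the second, epithelial cells of *Axin2CreErt2/Rosa26-tdTomato* mice were sorted 24 h after tamoxifen, by an epithelial surface marker and into tdTomato positive (Axin2+) and negative (Axin2−) cells, and 1 pool of each from 3 mice was hybridised on 2 dye-swapped arrays. Both arrays read the same extracts and were counted as 1 replicate. The mice were C57BL/6 males, 6 to 8 weeks old per the study's methods. The sort keeps epithelial cells, so the Axin2 arrays serve as the comparison in which vessels should be scarce.

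Endothelial cells are held together by adhesion molecules, among them Pecam1 (CD31) and the cadherin Cdh5 (VE-cadherin), and they read growth signals through receptor tyrosine kinases. Kdr and Flt1 are receptors for vascular endothelial growth factors (VEGF), whereas Tek (Tie2) binds the angiopoietins and forms complexes with Tie1. Vwf is stored in endothelial cells and platelets for blood clotting, and Emcn is a sialomucin of capillary and venous endothelium. Lymphatic endothelium is marked by the hyaluronan receptor Lyve1, which some tissue macrophages also carry, and by Prox1, the transcription factor that sets lymphatic fate. In the gut, blood capillaries and lymphatic vessels run in the wall beneath the epithelium.

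The probes are 60 bases long, and their number ranged from 1 (*Emcn*, *Tie1*) to 5 (*Flt1*) per gene. The main probes of *Kdr* and *Pecam1* were spotted 10 times on each array. Of the 22 probes, 15 were called well above background by the scanner's software in all 4 colon channels, and every one of the 10 genes had at least 1 such probe. The other 7 probes stood between 0.929 and 1.92 times their local background in all 8 channels and gave no usable level in the colon. They include 3 probes made from clone sequences of *Flt1* and *Pecam1*, a *Kdr* probe 28330 bases from the main one, 2 of 3 *Prox1* probes and a clone-based *Tek* probe. A few probes are printed 5′ to 3′ with their mm9 positions, since they show which stretches stand for an adhesion molecule, a receptor and a clotting factor, and which *Prox1* stretch gave no signal. The *Pecam1* probe (chr11:106542389-106544242, minus strand) has a listed span of 1854 bases and so crosses an intron, as does the dim *Prox1* probe (chr1:191977369-191984426, minus strand, a span of 7058 bases). The *Tie1* probe (chr4:118144132-118144191, minus strand) is the only one of its gene, and the *Vwf* probe (chr6:125635858-125635917, plus strand) is the second of its gene.
Pecam1 probe: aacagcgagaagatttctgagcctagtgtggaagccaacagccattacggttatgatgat
Tie1 probe: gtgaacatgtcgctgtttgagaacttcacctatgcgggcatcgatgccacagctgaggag
Vwf probe: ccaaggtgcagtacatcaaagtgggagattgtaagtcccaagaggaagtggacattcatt
Prox1 probe, dim in all channels: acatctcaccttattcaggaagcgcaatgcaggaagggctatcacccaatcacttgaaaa

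The software called from 53.1% to 60.3% of 43379 gene spots well above background, depending on the channel. No spot of the endothelial markers was saturated. The local background of their spots had a median of 22.2 in Cy3 and 78.4 in Cy5, so ratios of signal to background are not comparable between the dyes. KO RNA was in Cy5 in pair 1 and in Cy3 in pair 2. Across all genes, the log2 ratios of both pairs had a Pearson r of 0.0328. *Rspo3*, the deleted gene, was too dim on these arrays to check the KO label. One of its probes passed background in none of the channels, and the other only in both channels of pair 2, where its log2 level was 6.83 in the library labelled KO and 6.67 in the control (a ratio of 0.17). Pair 1 gave no level, and whether the probe lies in the deleted part was not determined. These readings neither bear out nor contradict the label. *Rspo3* KO therefore stands for the libraries labelled so, also where a direction is given. By qPCR, the paper reports reduced expression of the deleted gene in this mouse model. Epithelial genes (*Cdh1*, *Epcam*, *Krt8*, *Vil1*) were well above background in all 8 channels, whereas the muscle genes *Myh11* and *Des* were so in all 4 colon channels and in no epithelial channel. *Acta2* and *Actg2*, also expressed in muscle, were well above background in all 8. The colon samples thus held muscle RNA besides epithelial RNA.

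All 10 endothelial markers were above background in the colon and most were not in the sorted epithelial cells. By the software's call, 12 of the 22 probes (54.5%) were well above background in all 4 colon channels and in no epithelial channel, a pattern held by 3.76% of all gene probes. For 8 genes, the main probe, which is the brightest of a gene on the *Rspo3* KO arrays, was not well above background in any epithelial channel. The exceptions were *Vwf* and *Lyve1*, whose main probes were called in all 4 epithelial channels. *Vwf* stood there between 3.90 and 5.30 times background, compared with 47.9 to 106 times in the colon. *Lyve1* stood between 1.75 and 2.70 times background in the epithelial channels, compared with 33.6 to 63.0 times in the colon. The second *Vwf* probe was called in 3 epithelial channels. The clone-based *Tek* probe was also called in all 4 epithelial channels and in 1 colon channel, with signals of 1.47 to 1.92 times background throughout, so it did not separate colon from epithelium. With the threshold raised to 3 times the local background, *Pecam1*, *Tie1* and *Prox1* no longer had a probe above it in all 4 colon channels.

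**Figure D1:**
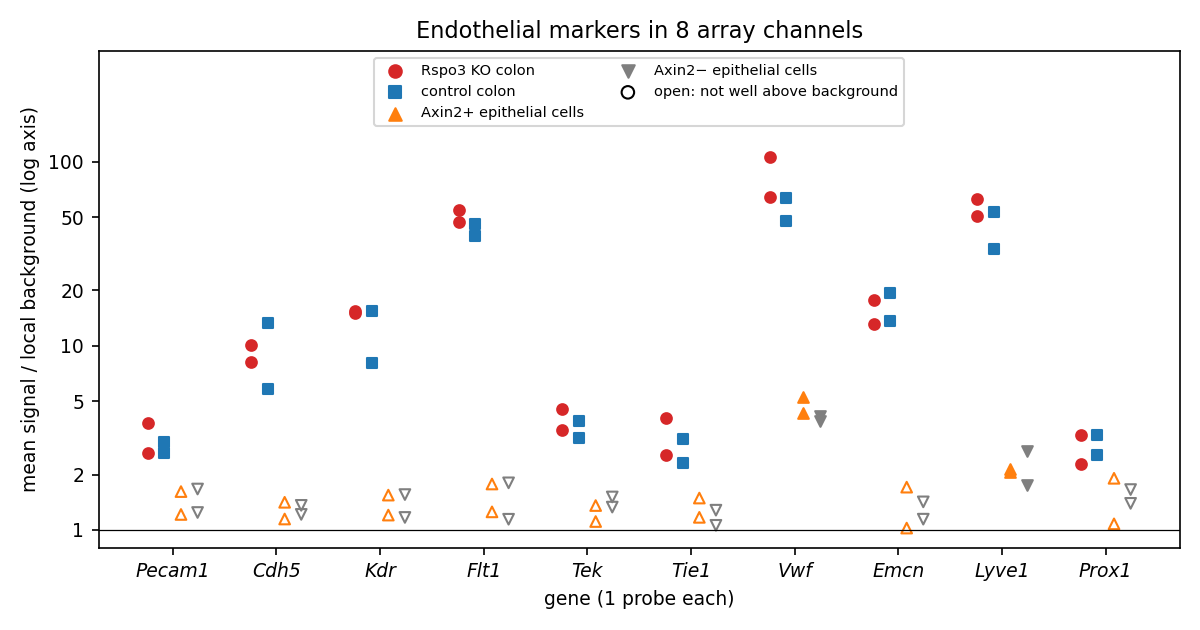
Mean signal over local background (log axis) of the main probe of each endothelial marker in the 8 channels of the 4 arrays: *Rspo3* KO and control colon (2 mice each) and Axin2+ and Axin2− epithelial cells (1 pool each on 2 dye-swapped arrays). Filled points were called well above background and open points were not. The colon points of every gene lie above its epithelial points, of which only those of *Vwf* (3.90 to 5.30) and *Lyve1* (1.75 to 2.70) are filled. Probes differ in affinity, so heights are not comparable between genes.

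On log2 intensities normalised over all 4 arrays, the 4 colon channels lay above the 4 epithelial channels for all 10 main probes. Over all genes measured, 38.9% showed this, and between 35.7% and 61.3% under other scalings, all of which kept the 10 probes apart. The probes of the markers and of all genes were chosen on the *Rspo3* KO arrays, so the choice favours a higher colon level. The clone-based *Tek* probe, not chosen there, ran from 6.28 to 6.50 in the colon and from 6.45 to 6.74 in the epithelial channels. *Flt1* ranged from 10.28 to 10.48 in the colon and from 6.15 to 6.30 in the epithelial channels, and its level was at least 17.4-fold higher in the colon. The bound sets the colon mean against the lowest signal that was well above background in each epithelial channel, or the probe's own signal where higher. The bounds were at least 7.29-fold for *Emcn*, at least 5.75-fold for *Kdr* and at least 4.26-fold for *Cdh5*. They were at least 2.01-fold for *Tek*, 1.83-fold for *Tie1*, 1.68-fold for *Pecam1* and 1.56-fold for *Prox1*, whose colon signals lay between 2.28 and 4.56 times background. *Lyve1* was measured on both sides and was 12.1-fold higher in the colon, and *Vwf* 6.85-fold. The size of these differences depended on the scaling: the median log2 difference over the 10 genes was 2.33, and 4.18 with the software's processed signal. Colon and epithelium lay on different slides and came from different mice, and the epithelial channels are 1 pair of pools, so these differences carry no test, and tissue and slide cannot be told apart.

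Within the epithelial cells, 3 of the 10 genes had a level on the Axin2 arrays. The log2 ratios of Axin2+ over Axin2− cells on the 2 dye swaps were -0.26 and -0.17 for *Lyve1*, -0.05 and 0.08 for *Vwf*, and -0.12 and -0.25 for *Tek*, the latter from its clone-based probe. None passed 1.5-fold. Across all genes on these arrays the dye swaps had a Pearson r of 0.925.

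Between the libraries labelled *Rspo3* KO and control, no difference in an endothelial marker passed the test. None of the 10 genes was called in *Rspo3* KO over control colon by limma at an adjusted p of 0.05, and none had an unadjusted p under 0.05, compared with 40 of 15383 genes called (0.26%). Mean ratios ran from 0.930-fold for *Prox1* to 1.32-fold for *Vwf*. None had a mean past 1.5-fold with the same sign in both pairs, as 4.32% of all genes did. Of the 10 genes, 5 were higher in both pairs (20.3% of all genes), 1 was lower in both (23.9%) and 4 went opposite ways (55.8%). Their median log2 ratio was 0.09 in pair 1, 0.09 in pair 2 and 0.10 for the mean of the pairs, beside a median of -0.01 over all genes. The 95% intervals of the 10 genes, which borrow their spread from all genes, reached from 0.643-fold at the lowest to 2.09-fold at the highest. With 2 pairs, each ratio was thus known only within a wide range. In RNA of mixed colon tissue, the number of endothelial cells and the RNA per cell cannot be told apart.

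**Figure D2:**
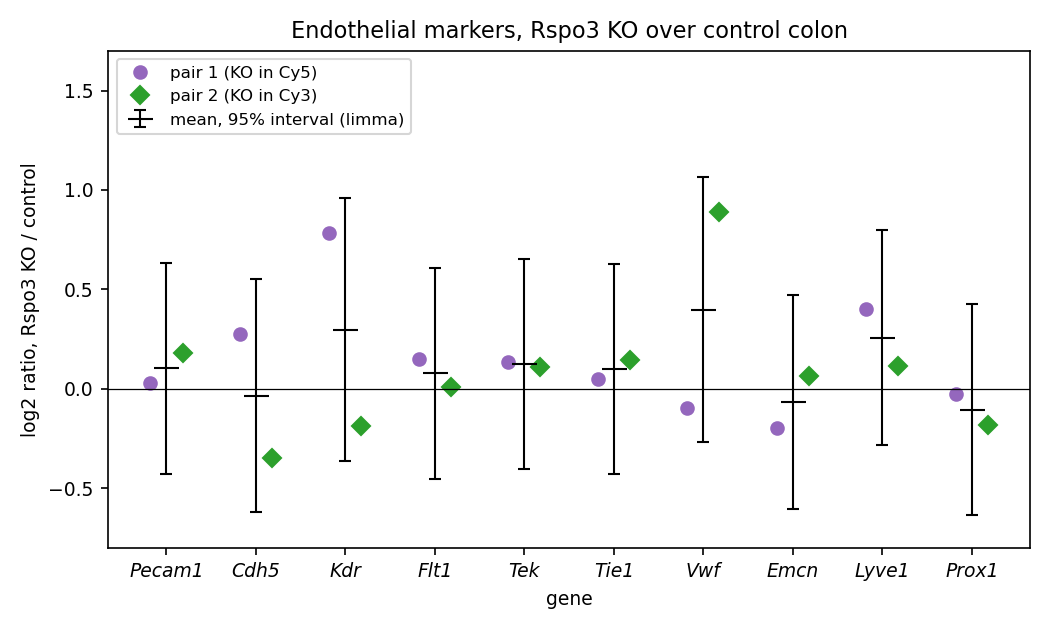
Log2 ratio of *Rspo3* KO over control colon for the main probe of each endothelial marker. Circles are pair 1 (KO in Cy5), diamonds pair 2 (KO in Cy3), and bars the mean with limma's 95% interval. All 10 intervals cross 0, and *Kdr* and *Vwf* show the widest gaps between the pairs.

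Among the VEGF receptors, *Kdr*, which carries most of the growth signal of VEGF in endothelium, had log2 levels of 9.03 (KO) and 8.25 (control) in pair 1 and of 8.60 (KO) and 8.79 (control) in pair 2. The low sample was the control of pair 1, and the groups overlapped. Its log2 ratios were 0.78 and -0.19, with a mean of 0.30 ± 0.69 (SD, n = 2 pairs; adjusted p = 1.0). The 10 spots of this probe lay close together on each array, with an SD of 0.04 on both, and ranged from 0.69 to 0.86 in pair 1 and from -0.24 to -0.11 in pair 2. The pairs thus differed by far more than the spots did. Pair, array and dye orientation changed together and cannot be told apart in this gap. With the background model fitted to all spots, the mean of *Kdr* was 0.04.

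**Figure D3:**
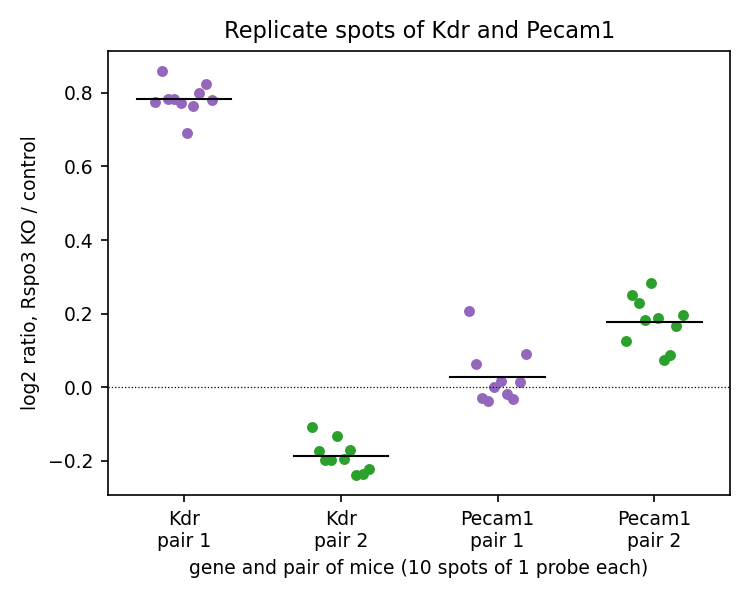
Log2 ratio of *Rspo3* KO over control for each of the 10 spots of the main *Kdr* and *Pecam1* probes on both arrays, with lines at the means. The *Kdr* spots fall into separate ranges (0.69 to 0.86 in pair 1, -0.24 to -0.11 in pair 2), and the *Pecam1* spots of the pairs overlap.

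*Flt1*, which binds VEGF with high affinity and is also made in a soluble form, had log2 levels of 10.48 (KO) and 10.33 (control) in pair 1 and of 10.29 (KO) and 10.28 (control) in pair 2. The colon samples differed little, and the groups overlapped. Its mean log2 ratio was 0.08 ± 0.10 (SD, n = 2 pairs). A second probe that starts 73 bases away gave ratios of 0.07 and -0.00, and another, inside the gene, gave 0.36 and 0.18. The 3 usable *Flt1* probes thus stayed within a log2 ratio of 0.36 in both pairs. For the start of both receptor genes, the 250 bases before it are printed 5′ to 3′ on the gene's strand (RefSeq, GRCm38.p6), since ETS family factors are known to act at endothelial promoters. Capitals mark AGGAAG or CGGAAG, 2 forms of the ETS binding site around its GGAA core, and their reverse complements CTTCCT and CTTCCG. Other forms of the site were not marked.
Flt1 promoter, chr5:147726012-147726261, minus strand: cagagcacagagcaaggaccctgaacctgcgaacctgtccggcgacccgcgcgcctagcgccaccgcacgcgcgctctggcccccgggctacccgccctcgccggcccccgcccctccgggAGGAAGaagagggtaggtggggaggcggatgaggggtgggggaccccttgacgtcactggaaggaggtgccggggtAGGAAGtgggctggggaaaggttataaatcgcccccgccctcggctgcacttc
Kdr promoter, chr5:75978456-75978705, minus strand: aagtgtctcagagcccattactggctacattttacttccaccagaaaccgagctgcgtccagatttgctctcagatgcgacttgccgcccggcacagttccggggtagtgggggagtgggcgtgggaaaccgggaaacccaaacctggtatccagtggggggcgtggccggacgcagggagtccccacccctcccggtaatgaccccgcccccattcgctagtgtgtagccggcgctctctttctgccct

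The *Flt1* window held 2 matches and the *Kdr* window none, though GGAA itself occurs in the *Kdr* window. Promoters of 6 of the 10 genes were listed (*Kdr*, *Flt1*, *Tek*, *Tie1*, *Emcn*, *Prox1*), and 3 of them held a match (*Flt1*, *Tie1* and *Emcn*, with 2 each). This is a share of 50%, compared with 42.5% of all genes with a listed promoter and 39.2% of all 32851 windows. A match describes the letters of a window and does not show a bound site.

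The angiopoietin receptor *Tek* had log2 levels of 7.24 (KO) and 7.10 (control) in pair 1 and of 7.24 (KO) and 7.13 (control) in pair 2. Both KO samples lay above both controls, by ratios of 0.14 and 0.11, and its mean of 0.12 ± 0.02 (SD, n = 2 pairs) had the smallest spread among the 10 genes. The limma interval of the mean nonetheless ran from -0.41 to 0.65 (adjusted p = 1.0). *Tie1*, its partner, had levels of 6.90 (KO) and 6.85 (control) in pair 1 and of 7.12 (KO) and 6.98 (control) in pair 2, and its groups overlapped. Its ratios of 0.05 and 0.15 gave a mean of 0.10 ± 0.07.

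Among the adhesion molecules, *Pecam1* had log2 levels of 6.93 (KO) and 6.91 (control) in pair 1 and of 7.08 (KO) and 6.90 (control) in pair 2. Both KO samples lay above both controls, as they did for *Tek* and *Lyve1*, and 29.5% of all genes had groups that did not overlap in either direction. Its mean log2 ratio was 0.10 ± 0.11 (SD, n = 2 pairs). Over its 10 spots the SD was 0.08 in pair 1 and 0.07 in pair 2, with ranges of -0.04 to 0.21 and 0.07 to 0.28. These ranges overlapped in part, while the pair ratios of 0.03 and 0.18 lay further apart than either SD. *Cdh5*, the cadherin of endothelial junctions, had levels of 8.31 (KO) and 8.03 (control) in pair 1 and of 8.08 (KO) and 8.43 (control) in pair 2. The samples changed order between the pairs, with ratios of 0.27 and -0.35. The second *Cdh5* probe, whose start lies 660 bases away, gave 0.04 and 0.28, so its signs were not those of the main probe in pair 2. *Emcn* had levels of 8.76 (KO) and 8.96 (control) in pair 1 and of 9.06 (KO) and 9.0 (control) in pair 2. Its groups overlapped, and its mean was -0.07 ± 0.19.

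*Vwf*, the clotting factor, had log2 levels of 10.95 (KO) and 11.05 (control) in pair 1 and of 11.20 (KO) and 10.31 (control) in pair 2. The control of pair 2 was the low sample, and the groups overlapped. Its ratios of -0.10 and 0.89 gave a mean of 0.40 ± 0.70 (SD, n = 2 pairs), the largest mean of the 10 genes (1.32-fold, 95% interval 0.830 to 2.09, adjusted p = 1.0). The second *Vwf* probe, which starts 693 bases away and is printed above, gave 0.64 and 0.35. It was thus higher in the KO in both pairs, where the main probe was not. Platelets carry *Vwf* and *Pecam1* too. Of 5 platelet genes, *Pf4* (-0.25 and 0.21) and *Ppbp* (0.43 and 0.63) were measured, *Itga2b*, *Gp9* and *Gp1ba* were not, and their summed linear intensity was 2562 and 3155 in KO and 2980 and 2708 in control colons. Of 5 red blood cell genes 2 were measured, with log2 ratios of 1.61 and 1.32 for the globin *Hba-a1* (adjusted p = 0.0712) and of 1.20 and 0.83 for *Alas2*. Their summed intensity was 10117 and 2848 in KO and 3378 and 1170 in control colons, so that each KO sample held more than its paired control. Both genes were also well above background in all 4 epithelial channels. The part of blood in the vessel genes' ratios was not tested.

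Of the lymphatic markers, *Lyve1* had log2 levels of 10.65 (KO) and 10.25 (control) in pair 1 and of 10.54 (KO) and 10.42 (control) in pair 2. Both KO samples lay above both controls, with ratios of 0.40 and 0.11 and a mean of 0.26 ± 0.20 (SD, n = 2 pairs; 1.19-fold, adjusted p = 1.0). Its second probe gave 0.21 and -0.28. Macrophages can carry *Lyve1*, and 6 of 7 macrophage genes measured were higher in the KO in both pairs, with a median of 0.29, none called, and *Adgre1* (0.72 and 0.66) highest. The summed intensity of the 7 genes was 8832 and 7478 in KO and 7506 and 5709 in control colons. Their part in the *Lyve1* ratio was not tested. *Prox1* had levels of 6.80 (KO) and 6.82 (control) in pair 1 and of 6.92 (KO) and 7.10 (control) in pair 2, close to background. Its groups overlapped, its mean was -0.11 ± 0.11, and it was the only one of the 10 genes lower in both pairs. Its measured probe, listed under an Ensembl transcript, lies at one end of the gene, 34723 bases from the dim probe printed above. Both dim *Prox1* probes are listed under the gene's RefSeq transcript and passed background in no channel.

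The ligands of these receptors and other vascular genes were read for comparison, from lists that had been written with earlier results of these data known. Of 75 such genes, 69 were measured on the *Rspo3* KO arrays. None was called, 3 had an unadjusted limma p under 0.05 (*Angpt2*, *Hhex* and *Abcc9*), 24 were higher and 14 lower in both pairs, and their median log2 ratio was 0.11. Over all genes, 715 of 15383 had an unadjusted p under 0.05.

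Of 8 ligands 7 were measured, and 2 were higher and 4 lower in both pairs. *Angpt2*, the angiopoietin that counters Tek signaling in many settings, had log2 levels of 7.33 and 7.47 in KO and of 8.26 and 8.26 in control colons. Both KO samples lay below both controls. Its ratios of -0.93 and -0.79 gave a mean of -0.86 in limma (95% interval -1.39 to -0.33, adjusted p = 0.457). It was called only in the fit with a dye term over all 4 arrays (adjusted p = 0.0302), and its adjusted p reached 1.0 in others. That fit takes both Axin2 dye swaps, which read the same extracts, as separate arrays, so part of its residual is technical. *Angpt2* was also measured in epithelial cells, where Axin2+ exceeded Axin2− cells by 0.92 and 1.12 on the dye swaps. *Vegfa*, the main ligand of Kdr, which was named for that role and not by the size of its ratio, showed -0.00 and -0.44 in KO over control and 0.80 and 0.56 in Axin2+ over Axin2− cells. *Vegfb*, a ligand of Flt1, showed -0.34 and -0.22, and 0.61 and 0.32. The lymphatic growth factors went the other way in the colon, with 0.29 and 0.76 for *Vegfc* and 0.25 and 0.27 for *Vegfd*. None of these ligand ratios in the colon passed the test, and those in epithelial cells have no replicate check.

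Among 8 measured receptors, the endothelin receptor *Ednrb* (0.82 and 0.24) and the BMP receptor *Acvrl1* (0.12 and 0.33) were highest of those alike in both pairs, and the VEGF co-receptor *Nrp1* (-0.18 and -0.09) and *S1pr1* (-0.04 and -0.24) lowest. Of 16 genes of junctions and the cell surface, 10 went opposite ways in the pairs. The largest means of those alike were *Cd93* (0.12 and 0.71) and *Cd34* (0.48 and 0.01), and *Rasip1* (-0.07 and -0.09) was the only one lower in both. *Cldn5*, the claudin of endothelial tight junctions, showed -1.24 and 1.1, and was chosen after its values were seen as an example of pairs that opposed each other. Among 11 transcription factors, *Hhex* showed -0.90 and -0.53 (adjusted p = 0.727) and *Ets1* -0.46 and -0.40, whereas *Sox17* (0.05 and 0.48) and *Erg* (0.40 and 0.00) were higher in both. *Klf2*, a factor induced by blood flow and likewise chosen after its values were seen, showed 2.53 and -1.02.

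**Figure D4:**
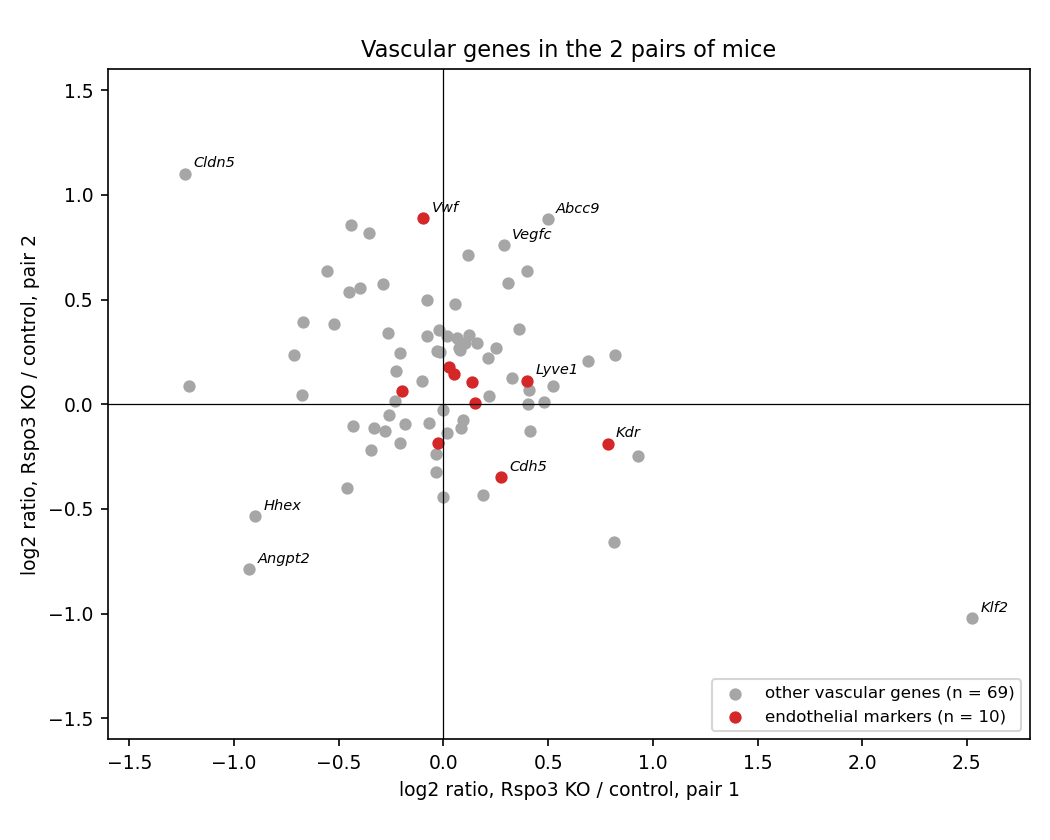
Log2 ratio of *Rspo3* KO over control colon in pair 1 (x axis) against pair 2 (y axis) for the 10 endothelial markers (red) and 69 other vascular genes (grey). The markers lie between -0.35 and 0.89 on both axes, *Angpt2* and *Hhex* lie lowest among genes lower in both pairs, and *Klf2* and *Cldn5* lie in the corners where the pairs oppose each other.

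Of 10 arterial and venous genes, *Ackr1*, a chemokine scavenger of venules (0.40 and 0.63), and the arterial connexin *Gja5* (0.31 and 0.58) were highest of those alike. *Gja4* (-0.33 and -0.11) and the venous receptor *Ephb4* (-0.28 and -0.13) were lowest. Of 6 further lymphatic genes, *Mmrn1* (0.52 and 0.09) and *Reln* (0.33 and 0.13) were higher in both pairs and *Nts* (-0.43 and -0.10) lower. *Nts* was well above background in 2 colon channels and in all 4 epithelial channels, with log2 levels from 6.03 to 6.50 in the colon and from 9.64 to 10.41 in epithelial cells. Its mean of -0.27 in the colon was -1.75 with the software's log ratio, also without a call. The leukocyte adhesion molecules *Vcam1* (0.41 and 0.07) and *Selp* (0.16 and 0.29) were higher in both pairs. Among 7 pericyte genes, *Abcc9* showed 0.50 and 0.88 (adjusted p = 0.785) and *Rgs5* 0.69 and 0.21, and *Kcnj8* -0.26 and -0.05. On the Axin2 arrays 39 of the vascular genes had a level, and the mean of both arrays was past 1.5-fold, with 1 sign, in 7 of them. The share over all genes of these arrays was not determined, so this count cannot be called high or low. In Axin2+ cells 3 were higher (*Angpt2*, *Vegfa*, *Nr2f2*) and 4 lower (*Efnb2*, *Klf4*, *Clec14a*, *Nts*). The largest of these was the ephrin *Efnb2* (-1.31 and -1.36), which is also expressed in epithelium.

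Markers of other cells of the colon wall were read beside the vessel genes. Of 5 smooth muscle genes measured, 4 were higher in both pairs, with a median of 0.24 and summed intensities of 96504 and 96574 in KO and 80975 and 93130 in control colons. Of 6 fibroblast genes, 2 were higher in both, with a median of 0.30 and sums of 102071 and 114281 in KO and 84152 and 90913 in control colons. All 4 epithelial genes measured went opposite ways in the pairs, with a median of -0.02. Of 4 leukocyte genes measured, 2 were lower in both pairs, with a median of -0.40 and sums of 2188 and 2313 in KO and 3349 and 2403 in control colons. The 10 endothelial markers summed to 6795 and 6833 in KO and to 6175 and 5711 in control colons. These sums are of linear intensities, so the brightest probes weigh most. The gap in pair 2 came mostly from *Vwf* (log2 levels of 11.20 in KO and 10.31 in control), whose ratio in pair 1 was -0.10. The sums therefore do not describe the markers as a set, of which 5 rose in each pair and the rest did not. None of the muscle, fibroblast, epithelial or leukocyte genes was called, and the part of tissue makeup in the vessel genes' ratios was not tested. Some stromal genes were also read in the sorted cells: the fibroblast genes *Dcn* and *Col1a2*, the muscle genes *Acta2* and *Actg2*, the macrophage genes *C1qb* and *Csf1r* and the platelet gene *Pf4* were well above background in all 4 epithelial channels, as *Vwf* and *Lyve1* were. Of those measured in the colon, the main probes of 4 of 6 fibroblast, 3 of 5 muscle and 3 of 7 macrophage genes passed in no epithelial channel. Of these, the muscle gene *Tagln* had another probe with a level on the Axin2 arrays (log2 ratios of -0.21 and -0.31). The same held for 1 of 2 platelet genes.

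The genes whose log2 levels over the 8 channels followed the mean of the endothelial markers most closely were *Nid1*, *Sgce*, *Snx25*, *Tagln* and *Ddr2*. For *Nid1*, a basement membrane protein, levels ran from 11.46 to 11.91 in the colon and from 6.21 to 6.37 in epithelial cells. The channels fall into a colon and an epithelial cluster, so the likeness describes the gap between them. Of 15375 genes compared, 3477 (22.6%) followed the mean at least as closely as *Prox1*, the marker farthest from it (r = 0.921), and among the other vascular genes 49 of 69 (71.0%) did.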

How the data were processed

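The authors hybridised colon or sorted epithelial RNA on dual-color arrays and ran Agilent Feature Extraction. They deposited the mean spot intensity and local background intensity of each dye, software flags and processed intensities on a linear scale. The authors also deposited log10 ratios of Cy5 over Cy3, which the series' table repeats. Probe positions are those of mm9. The labels name TRIzol and distal colon for the *Rspo3* KO arrays, and the methods name RNeasy and colon. For the gene set analysis of KO and control, the methods name isolated colon epithelium instead. The labels were followed here.

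From these, limma (version 3.58.1, R version 4.3.3) corrected the background by normexp (offset 50). Spots with a background outlier (66 and 6 on the *Rspo3* KO arrays) were kept out of that fit, and control and outlier spots were then left out. Log2 ratios were normalised by loess within arrays and turned to KO over control or Axin2+ over Axin2−. Spots were averaged per probe, and a gene was read by its brightest probe among those that passed background on both arrays, in either dye. Of 41174 probes, 33743 were named through RefSeq. The KO arrays were tested against 0 with lmFit and eBayes, with Benjamini-Hochberg adjustment over 15383 genes at 0.05. With 1 residual degree of freedom, the spread leans on 6.89 prior degrees of freedom. Channel levels were scaled between arrays by Aquantile. The number of arrays limits the precision. The authors' error-weighted combination of arrays was not repeated. Named genes were all 10 markers, from each vascular list any gene called and otherwise the 2 largest mean ratios in each direction among those alike in both pairs, the 5 genes nearest by Pearson r, and *Rspo3*. Members and lists were chosen with earlier results of these data known. The pairing of mice rests on the arrays.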

Additional observations from a re-analysis of the deposited data

How the results depend on the processing

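No endothelial marker was called under any of the 10 alternatives that allow a test: background fitted to all spots, no background correction, an offset of 16, the software's log ratio, the series table, median centring, no filter, a filter asking for both channels, all probes averaged, and a dye term over 4 arrays. The filters and the dye term leave the ratios of the main probes as they are, and the table repeats the software's ratio. The mean log2 ratio of *Cdh5* turned from -0.04 to 0.00435 with the software's and the table's log ratio, 0.00302 with median centring and 0.0621 with the mean over probes. That of *Emcn* turned from -0.07 to 0.00211 with background fitted to all spots, and that of *Kcnj8* from -0.15 to 0.0515 with the mean over probes. The markers' median of 0.10 became 0.0674 with background fitted to all spots, 0.14 with an offset of 16, 0.15 with the software's or the table's log ratio and 0.11 with median centring or the mean over probes, and was between 0.0868 and 0.0937 with each pair left out.

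The count of genes called on the *Rspo3* KO arrays depended on the processing. It was 40 as reported (22 higher), and 1 with background fitted to all spots, 70 without background correction, 126 with an offset of 16, 128 with the software's or the table's log ratio, 8 with median centring, 0 without a filter, 42 with a filter on both channels, 5 with the mean over probes and 282 with the dye term, a fit that takes both Axin2 dye swaps as separate arrays. Of the vascular genes, 1 (*Angpt2*) was called with the dye term. The cause was not tested. Genes with a mean past 2-fold and 1 sign in both pairs numbered 182, and 664 past 1.5-fold, with no marker among either. Without a filter, all 10 markers had a value on the Axin2 arrays in place of 3. All 10 stayed above epithelium in the colon under 3 other scalings, and 7 passed 3 times the background. With 1 pair left out no test remains. The main test was already paired, since KO and control were compared within each array. Replicate numbers of the *Rspo3* KO and Axin2 arrays name unrelated mice, so the experiments were not paired with each other. Dim probes limit *Pecam1*, *Tie1* and *Prox1*.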
